A study of Mus musculus with 4 samples.

Results

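The 5 genes described here encode the adult mouse hemoglobin chains and the first enzyme of erythroid heme synthesis, and they are 5 of the 21861 features in each of the 4 libraries. They are the alpha-globin genes Hba-a1 and Hba-a2, the beta-globin genes Hbb-bs and Hbb-bt, and Alas2. They were chosen by values measured in the same libraries, namely their level in endothelial cells (EC) against all other cells of a mouse and at postnatal day 43 (P43) against P70. Those contrasts are therefore given as a description. Where the members enter a fit over all genes, their calls follow from that choice and support nothing. The samples were brain tumors of hGFAP-cre::TP53Fl/Fl::lsl-MYCN mice, a model of pediatric high-grade glioma in which Cre under the human GFAP promoter acts in neural precursors, removes Trp53 and switches on a human MYCN and luciferase transgene. All 4 mice carry these alleles, and no tumor-free mouse was analysed here. Mouse 4 (labelled female) and mouse 5 (male) were taken at an age of 43 days, and mouse 6 (male) and mouse 7 (female) at 70 days, with 1 library of droplet-based 3′ single-cell RNA sequencing per mouse. Before loading, the red blood cells were lysed and dead cells were sorted out.

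Red blood cells carry oxygen on hemoglobin, a tetramer of alpha and beta chains that each hold a heme group. Erythroblasts make the chains in very large amounts from gene clusters on different chromosomes, and Alas2 starts the heme supply there, whereas other cells use its relative Alas1. Young red cells without a nucleus still hold globin mRNA, which can also leak into a cell suspension. Alpha-globin has in addition been described in the endothelium of small arteries. A globin transcript in a vessel cell's droplet can thus come from more than one place, and the counts alone do not say which.

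The globin genes sit in pairs of near-copies. In the GENCODE vM21 annotation of GRCm38, the build of the deposited counts, Hba-a1 lies at chr11:32283511-32284465 and Hba-a2 at chr11:32296489-32297298 on the plus strand, and both have 3 exons in their first listed transcript. Hbb-bs (chr7:103826534-103828096) and Hbb-bt (chr7:103812524-103813996) lie on the minus strand, also with 3 exons. Alas2 (chrX:150547375-150570638) has 11 exons. The coding sequences of Hba-a1 and Hba-a2 were 99.8% identical over 426 bases, and those of Hbb-bs and Hbb-bt were 99.8% identical over 441 bases. Over the last 100 bases of the transcripts, which 3′ reads favour, 84 of 84 aligned bases were the same in the alpha pair and 68 of 97 in the beta pair, so that no mismatch set the alpha genes apart where their ends could be aligned. How reads were assigned within a pair is therefore uncertain. Whether reads that match both genes of a pair were counted was not checked. Sums over a pair, and ratios of beta to alpha, therefore carry this limit too.

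The bases before the transcription start are shown because the members occurred in the same few cells. They are the 250 bases upstream of the RefSeq start (GRCm38.p6), read along the gene's strand, for chr11:32283422-32283671, chr7:103827929-103828178, chr7:103813924-103814173 and chrX:150547167-150547416. Capitals mark AGATAA, a motif bound by GATA factors, the box named CACCC and the box named CCAAT on either strand, and TATAA, the letters of a TATA box, on the gene's strand within the last 40 bases. Neighbouring capitals can belong to different motifs.
Hba-a1: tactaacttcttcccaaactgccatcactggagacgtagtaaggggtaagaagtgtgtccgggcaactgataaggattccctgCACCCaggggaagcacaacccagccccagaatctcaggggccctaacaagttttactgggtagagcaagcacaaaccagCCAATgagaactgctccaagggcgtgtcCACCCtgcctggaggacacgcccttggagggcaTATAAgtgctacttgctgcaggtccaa
Hbb-bs: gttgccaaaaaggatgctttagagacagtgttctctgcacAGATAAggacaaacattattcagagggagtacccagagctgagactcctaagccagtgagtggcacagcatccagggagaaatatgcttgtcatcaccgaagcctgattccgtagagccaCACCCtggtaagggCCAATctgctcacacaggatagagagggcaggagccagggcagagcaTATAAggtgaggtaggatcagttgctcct
Hbb-bt: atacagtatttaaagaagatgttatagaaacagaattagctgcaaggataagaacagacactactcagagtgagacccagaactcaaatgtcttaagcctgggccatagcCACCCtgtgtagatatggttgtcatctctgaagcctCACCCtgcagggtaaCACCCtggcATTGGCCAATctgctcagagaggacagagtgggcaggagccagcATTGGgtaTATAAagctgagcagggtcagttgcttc
Alas2: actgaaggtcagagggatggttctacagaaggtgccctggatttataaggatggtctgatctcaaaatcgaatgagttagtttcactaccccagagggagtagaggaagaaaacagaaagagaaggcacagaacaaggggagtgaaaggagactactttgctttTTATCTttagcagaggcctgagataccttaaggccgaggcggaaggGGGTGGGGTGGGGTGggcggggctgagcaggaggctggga

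The window of Hba-a2 (chr11:32296242-32296491) was 98.8% identical to that of Hba-a1 and is not printed. All 4 globin windows held TATAA near the start, at -27 to -23 in Hba-a1, -30 to -26 in Hba-a2, -29 to -25 in Hbb-bs and -28 to -24 in Hbb-bt. Of the 32851 promoters in the reference, 4.23% held these letters in the same place. All 4 globin windows also held CCAAT, which 33.8% of promoters did, and all 5 members held CACCC, which 52.0% did. AGATAA was found in Hbb-bs and, on the opposite strand, in Alas2, against 9.99% of promoters. Other forms of a GATA motif were not searched for, so a window without AGATAA may still hold one. The GENCODE gene starts lie further upstream than the RefSeq starts, by 161 bases in Hba-a1, 3 in Hba-a2, 168 in Hbb-bs, 73 in Hbb-bt and 42 in Alas2, so the windows depend on the annotation.

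The libraries held 1739 to 3693 barcodes and 13106786 to 40621958 unique molecular identifiers (UMIs, counted mRNA molecules), and 10975 of 11834 barcodes were kept as cells. EC were 1 cluster of 1251 cells, with 423, 497, 295 and 36 cells in mice 4, 5, 6 and 7. All 12 EC markers were detected in the EC of each mouse, with summed levels of 16784 to 26386 CPM (UMIs of a gene per 1000000 UMIs of all genes in the same cells) against 74.6 to 569 CPM in the other cells. The libraries shared 1 to 3 barcodes per pair. At P43, the library labelled female (mouse 4) had 223 CPM of 4 Y-linked genes in its vessel and immune cells and the library labelled male (mouse 5) had 0.634 CPM, so these labels go against the data. Both are P43 libraries, so the age groups do not change if they were exchanged.

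Globin transcripts were found mainly in the P43 libraries, and there mainly in a few endothelial cells. Over the kept cells, the 4 globin genes summed to 2413 UMIs in mouse 4 and 4215 in mouse 5, against 51 in mouse 6 and 0 in mouse 7. This is 187 CPM (95% Poisson interval 180 to 195) in mouse 4, 391 CPM (379 to 403) in mouse 5 and 3.22 CPM (2.40 to 4.23) in mouse 6. In mouse 7, the deepest library, a count of 0 allows up to 0.0759 CPM (3 counts). All such intervals and limits cover counting error only, and the UMIs of 1 cell are not independent draws from an animal. Both P43 libraries lay above both P70 libraries. EC, where most globin UMIs lay, held 7.48%, 18.1%, 7.62% and 0.189% of all UMIs in mice 4 to 7. These library levels do not take that difference into account.

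Each of the 4 globin genes was higher in both P43 libraries than in both P70 libraries. Hba-a1 had 410, 919, 7 and 0 UMIs in mice 4, 5, 6 and 7. Hba-a2 had 307, 629, 6 and 0 UMIs. Hbb-bs, the most abundant of the 5 genes in mice 4, 5 and 6, had 1351, 2512, 29 and 0 UMIs.
Hbb-bt had 345, 155, 9 and 0 UMIs and was thus lower in mouse 5 than in mouse 4, unlike the other globin genes. Alas2 was rare in all libraries, with 3, 16, 2 and 3 UMIs in mice 4 to 7. Of the 859 barcodes that were removed, none held a globin UMI and 1, in mouse 4, held 1 Alas2 UMI.

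Only 15 of the 10975 kept cells held any globin UMI, and mice 4 to 7 had 8, 4, 3 and 0 of these cells. Of these, 6 held at least 10 globin UMIs, and each of those was an endothelial cell, with 2 in each of mice 4, 5 and 6. The other 9 cells held exactly 1 globin UMI, and 3 of those were EC, all in mouse 4. The remaining 6 single UMIs were in 2 OL-like (oligodendrocyte-like tumor) cells and 1 mural cell of mouse 4, 1 T or NK cell and 1 myeloid cell of mouse 5 and 1 cell of mouse 6 in a dendritic cell cluster. The markers of that last cell go against its cluster, with 225 UMIs of 4 neutrophil markers and 1 UMI of 1 dendritic cell marker. No cell held 2 to 9 globin UMIs. Single UMIs were of Hbb-bs in 5 of these cells, of Hba-a1 in 3 and of Hba-a2 in 1, whereas none was of Hbb-bt.

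**Figure D1:**
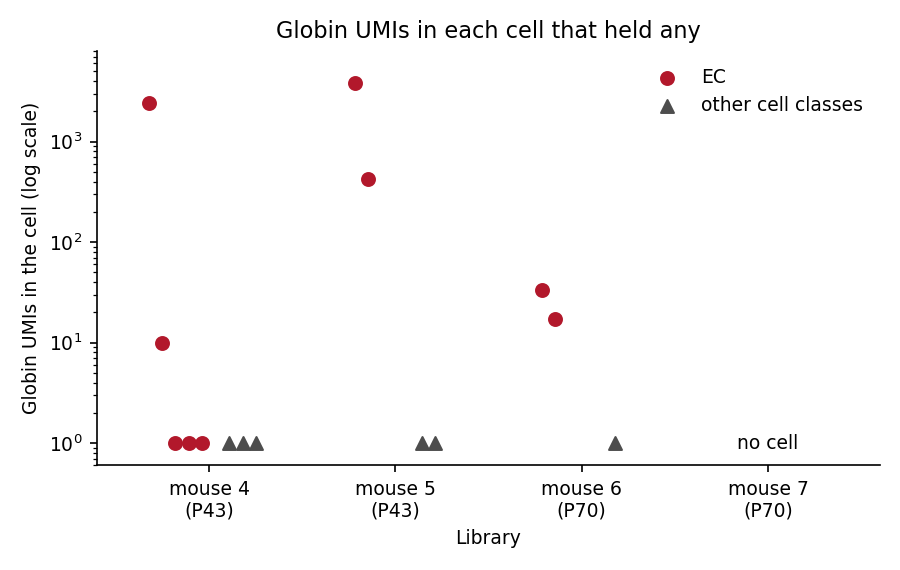
Globin UMIs (sum of Hba-a1, Hba-a2, Hbb-bs and Hbb-bt, log scale) in each of the 15 kept cells that held any, by library, with endothelial cells as red circles and all other classes as grey triangles. The 6 cells with at least 10 globin UMIs are all EC, all 6 non-endothelial cells hold 1, and mouse 7 has no such cell.

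Cells are named here by mouse and by falling globin count. Cell 4a held 2397 globin UMIs, which is 72.6% of its 3303 UMIs, and cell 5a held 3786, 47.9% of 7908 UMIs. Cell 5b held 427, 17.3% of 2467 UMIs. These 3 cells, called hemoglobin-rich because globins took at least 5% of their UMIs, held 6610 of the 6679 globin UMIs, or 99.0%.
Cells 6a, 6b and 4b were far lower, with 33, 17 and 10 globin UMIs. In those cells globins were 0.746%, 0.250% and 0.255% of all UMIs. The level of a library was thus set by 1 or 2 cells, since the highest cell alone held 99.3% of the globin UMIs of mouse 4, 89.8% of mouse 5 and 64.7% of mouse 6.

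Because so few barcodes carry the members, a gene filter can drop them. A minimum of 3 barcodes per gene and library, as used for the cell filters here, was passed by Hba-a1, Hba-a2 and Hbb-bs in mouse 4, by Hba-a1, Hbb-bs and Alas2 in mouse 5, by Hba-a1 in mouse 6 and by Alas2 in mouse 7. Hbb-bt was present in 2 barcodes in each of mice 4, 5 and 6 and passed in no library. All values given here come from the unfiltered counts.

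EC held 99.9% of the globin UMIs, although they were 11.4% of the kept cells and held 5.31% of all UMIs. This contrast chose the genes, and no test was made of it. In EC, the summed globin level was 2496, 2156 and 41.4 CPM in mice 4, 5 and 6. In mouse 7 it was 0, where 36 cells allow up to 40.1 CPM. In all other cells it was 0.251, 0.226 and 0.0683 CPM in mice 4, 5 and 6, from 3, 2 and 1 UMIs, and 0 in mouse 7.
Over all mice, the level in EC was 19817 times that in other cells (95% interval 9100 to 54020). The same ratio was 8645 per cell in place of per UMI. Without the 3 hemoglobin-rich cells it was 188 (81.6 to 531), from 63 UMIs in EC and 6 in other cells, and in mouse 5 alone no globin UMI was then left in EC against 2 in other cells.

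As a share of cells, globin was rare in EC too. It was detected in 5 of 423 EC of mouse 4 (1.18%, 95% exact binomial interval 0.385 to 2.74), 2 of 497 of mouse 5 (0.402%, 0.0488 to 1.45) and 2 of 295 of mouse 6 (0.678%, 0.0822 to 2.43). In mouse 7, 0 of 36 EC allow a share of up to 8.33%, so a share like that of the other mice was not detectable there. Among all other cells, the shares were 0.104% (0.0214 to 0.302) in mouse 4, 0.209% (0.0253 to 0.751) in mouse 5 and 0.0411% (0.00104 to 0.229) in mouse 6, and 0 of 3433 in mouse 7, which allows up to 0.0874%.
OL-like tumor cells held a globin UMI in 2 of 2249 cells of mouse 4 (0.0889%) and in none of 268, 418 and 2160 cells of mice 5, 6 and 7. EC had median depths of 1803, 3644, 2037 and 1103.5 UMIs and OL-like cells 1324, 20968, 4724 and 11946 in mice 4 to 7, so that OL-like cells were the deeper class in mice 5, 6 and 7.
After thinning each cell to 2000 UMIs, which left out 495 EC and 2707 other cells with fewer, globin was left in 4 of 200, 2 of 396, 2 of 150 and 0 of 10 EC in mice 4 to 7. Other cells then had 1 of 1119, 0 of 814, 1 of 1870 and 0 of 3214.

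**Figure D2:**
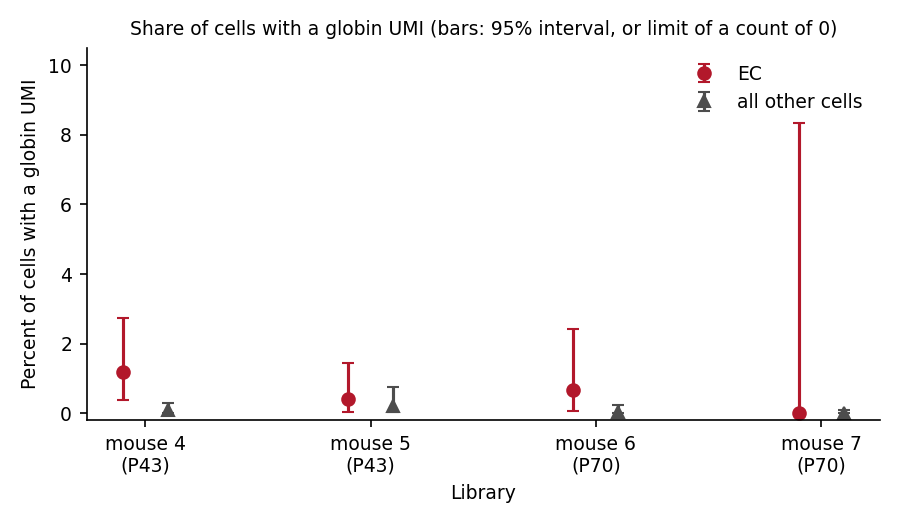
Percent of cells with at least 1 globin UMI (vertical axis) in EC (red circles) and in all other kept cells (grey triangles) of each library, with 95% exact binomial intervals as bars or, where no cell had one, the limit that 3 counts allow. The share in EC was 1.18%, 0.402% and 0.678% in mice 4, 5 and 6, and the bar for the 36 EC of mouse 7 ends at 8.33%.

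The spread of globin UMIs outside EC can be set beside that of EC genes. Cldn5, a tight junction gene of brain endothelium, had 12378 UMIs in the EC of mouse 5 and 80 in other cells, where it was present in 24 of 959 cells. In mouse 4 it had 6182 UMIs in EC and 721 in other cells, in 342 of 2896 cells. Flt1, a VEGF receptor, had 9364 and 205 UMIs in mouse 5 and 4615 and 747 in mouse 4. Globins had 4213 UMIs in EC and 2 in other cells of mouse 5, and 2410 and 3 in mouse 4. They were found outside EC in fewer cells than either gene in both libraries. However, Cldn5 was present in 99.6% of the EC of mouse 5 and 95.5% of those of mouse 4, and globin in 0.402% and 1.18%. The spreads are therefore not compared like for like. Cldn5 and Flt1 outside the EC cluster can come from free RNA, from doublets or from EC placed in other clusters, and these cannot be told apart here. Whether free RNA placed the single globin UMIs was not tested.

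The hemoglobin-rich cells were endothelial by their markers in mouse 5, and less clearly so in mouse 4. Cell 5a held all 12 EC markers with 113 UMIs among 4122 UMIs other than globin, and the 77 EC of mouse 5 within 10% of that depth and without globin had a median of 118 (77 to 180). Cell 5b held all 12 with 53 UMIs, where 30 EC of like depth had a median of 48 (31 to 86). Cell 4a held 4 of 12 markers with 12 UMIs, where 28 EC of like depth had a median of 7 markers (2 to 9) and 22.5 UMIs (4 to 39).
Cell 4a also had 543 genes other than globins, fewer than all 28 EC of like depth (573 to 703). Apart from globins, its leading genes were 8 mitochondrial transcripts and Sptbn1, the beta chain of a spectrin. A different gene, Sptb, encodes the erythroid beta spectrin and had no UMI in the 3 hemoglobin-rich cells. Flt1 was 12th in cell 4a with 7 UMIs, and the erythroid gene Mkrn1 had 7 as well. In cell 5a the leading gene was Bsg, the basigin gene that is high in barrier endothelium, with 67 UMIs. In cell 5b Bsg and the mitochondrial mt-Co1 led with 28 UMIs each, followed by mt-Atp6 with 27, and Sptbn1 had 14. EC are defined here by a cluster, so these marker values describe the cells and are no test.

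**Figure D3:**
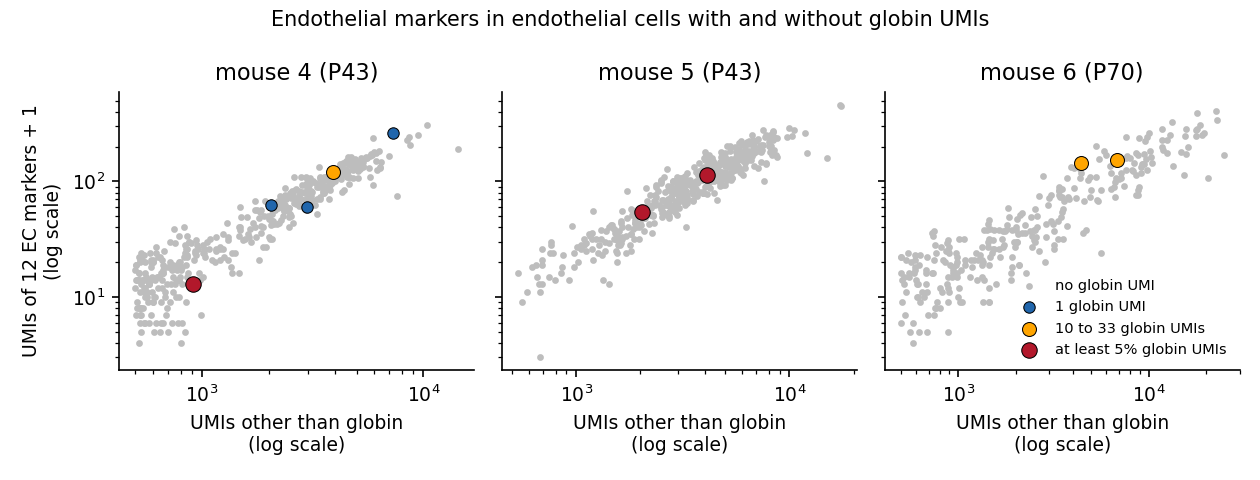
Summed UMIs of the 12 EC markers (plus 1, log scale) against UMIs other than globin (log scale) in each EC of mice 4, 5 and 6, with cells without globin in grey, cells with 1 globin UMI in blue, those with 10 to 33 in orange and the 3 hemoglobin-rich cells in red. The rich cells of mouse 5 lie within the cloud of other EC, while cell 4a, with 12 marker UMIs, lies below most EC of its depth.

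The other 3 cells with at least 10 globin UMIs held all 12 EC markers, with 120 UMIs in cell 4b, 143 in 6a and 151 in 6b. To compare these cells with other EC, CPM without globin are given, which are UMIs per 1000000 UMIs other than globin. On that scale the EC markers summed in the 6 cells together to 26721 (95% Poisson interval 24611 to 28963) and in the 1242 EC without globin to 23223 (23077 to 23370). Markers of capillary EC (Mfsd2a, Tfrc, Slc16a1, Rgcc, Spock2 and Slc7a5) summed to 8350 (7190 to 9644) against 6185 (6110 to 6261). Markers of arterial EC summed to 587 (312 to 1003) against 392 (374 to 412), and those of venous EC to 316 (127 to 651) against 788 (761 to 815). All 7 venous UMIs were in cell 6b. Within a mouse, the capillary markers of the 2 cells were at 6841 (4709 to 9607) against 6582 (6420 to 6748) in mouse 4, at 7790 (5743 to 10328) against 6761 (6646 to 6878) in mouse 5 and at 9311 (7608 to 11282) against 5129 (5002 to 5259) in mouse 6. The capillary intervals thus overlapped in mice 4 and 5 and not in mouse 6. In mouse 4, cell 4b held 32 of the 33 capillary UMIs. Cell 4a alone, with 1 UMI, was at 1104 (27.9 to 6150), below the EC of that mouse without globin. Its EC markers were also lower, at 13245 (6844 to 23136) against 25375 (25055 to 25698) in those EC. Arterial markers did not overlap in mouse 5, at 1136 (457 to 2341) against 400 (372 to 429). Of those 7 arterial UMIs, 6 were in cell 5b, from Sema3g and Hey1. In mouse 6 the arterial markers of the 2 cells were at 537 (197 to 1169) against 250 (222 to 280). In mouse 4 they had no UMI, which allows up to 622, against 557 (511 to 607). These intervals cover counting error only and leave out the spread between EC. Cells 6a and 6b held 4422 and 6797 UMIs, against a median of 2037 in the EC of mouse 6. Capillary, arterial and venous markers were not compared at like depth.
The venous markers of EC without globin were at 427, 390 and 1710 CPM without globin in mice 4, 5 and 6. The cells with globin had 627 (252 to 1291) in mouse 6 and none in mice 4 and 5, where a count of 0 allows up to 622 and 487. Those limits lie above the EC without globin, so a lower venous level in mice 4 and 5 was not detectable. None of the 7 platelet markers (Pf4, Ppbp and others) and none of the T cell, oligodendrocyte precursor, neuroblast and neuron markers was present in any of the 6 cells. Markers of some other classes were present in them. Astrocyte markers had 5, 3, 19 and 13 UMIs in cells 4b, 5a, 6a and 6b, from 2 genes in 6b and 1 gene in each of the others. Markers of mature oligodendrocytes had 13, 7, 8 and 7 in 5a, 5b, 6a and 6b, from 1 gene in each cell. Markers of OL-like cells had 1, 4 and 3 UMIs in 4a, 4b and 5a. Mural markers had 7 UMIs in 6a, myeloid markers 2 and neutrophil markers 1 in 6b, and dendritic and B cell markers had at most 6 and 3 in a cell. Over all EC of a mouse, the astrocyte list was at 1268 to 2273 CPM and the list of mature oligodendrocytes at 470 to 1101 CPM. The part of these transcripts in the globin values was not tested. The reporter transcripts MYCN and FLUC were also absent from all 6.

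Alas2 was present in 3 of the 6 cells with at least 10 globin UMIs. Cell 4a held 3 Alas2 UMIs, 5a held 14 and 6a held 2, while cells 5b, 6b and 4b held none. Those 3 cells were among 8 kept cells with Alas2, and the other 5 held 1 UMI each and no globin: 1 EC and 1 cell of a dendritic cell cluster of mouse 5, and 3 OL-like cells of mouse 7. The single UMIs in OL-like cells came from cells with 12167 to 24162 UMIs. In the hemoglobin-rich cells Alas2 was at 2405 CPM without globin (1401 to 3851), and in the 1242 EC without globin 1 UMI gave 0.240 (0.00608 to 1.34).

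Other erythroid genes were present in the rich cells, with 14 UMIs in cell 4a, 14 in 5a and 2 in 5b. Relative to UMIs other than globin (906, 4122 and 2040), their level was highest in cell 4a. In the EC without globin, Tfrc, Bnip3l and Car2 had 3533, 1573 and 1000 of the 7303 UMIs of these genes. The 33 further erythroid genes in the features summed to 15453 CPM without globin (8448 to 25927) in cell 4a, against 2025 (1936 to 2118) in the EC of mouse 4 without globin. In the 2 rich cells of mouse 5 they were at 2597 (1484 to 4217), which overlapped with 2086 (2022 to 2151) in the other EC of that mouse. Of the 33 genes, 7 had a UMI in the 3 cells, among them Bnip3l, Mkrn1, Ube2l6, Tfrc, Bpgm and Slc25a37. Bnip3l, needed to clear mitochondria from maturing red cells, had 9 UMIs, or 1273 CPM without globin (582 to 2417) against 378 (360 to 397) in EC without globin. Mkrn1 was at 990 (398 to 2041) against 81.5 (73.0 to 90.6), and Ube2l6, an enzyme of the ISG15 pathway that late erythroid cells also express, at 707 (230 to 1651) against 23.5 (19.1 to 28.7).
All 7 Mkrn1 UMIs and 4 of the 5 Ube2l6 UMIs were in cell 4a. Tfrc, the transferrin receptor, which brain capillaries also express, was not higher, at 566 (154 to 1449) against 849 (821 to 877). Gata1 and Klf1, the defining transcription factors, and Slc4a1, the anion exchanger of the red cell membrane, had no UMI in the 3 cells. With 7068 UMIs other than globin in all, a count of 0 in these cells allows up to 424 CPM without globin.

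**Figure D4:**
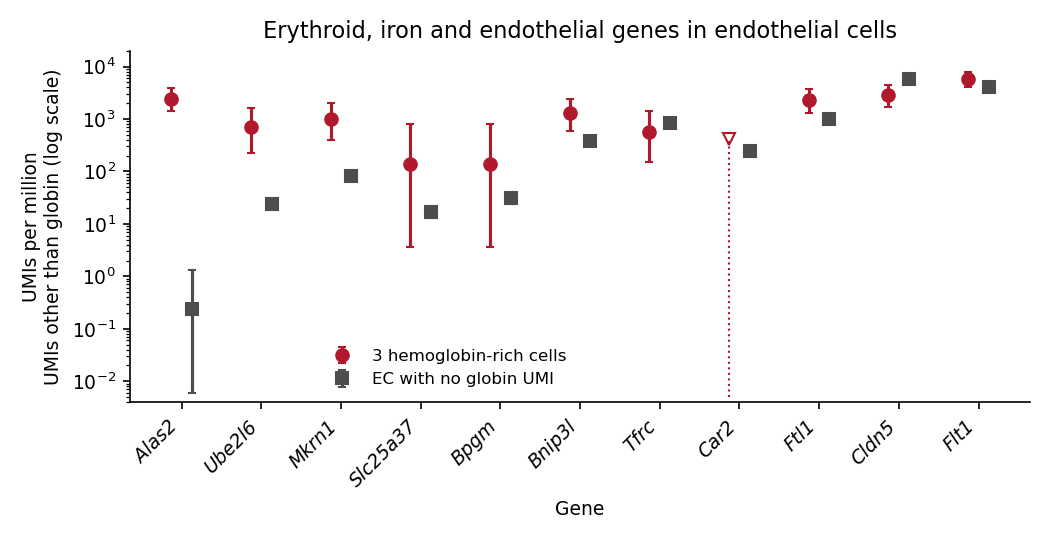
CPM without globin (UMIs per 1000000 UMIs other than globin, log scale) of Alas2, of erythroid and iron genes and of the EC markers Cldn5 and Flt1, in the 3 hemoglobin-rich cells (red circles) and in the 1242 EC without globin (grey squares), with 95% Poisson intervals as bars, and an open triangle for the limit that 3 counts allow where the count was 0. Alas2, Ube2l6 and Mkrn1 are higher in the rich cells, Tfrc is not, and the genes shown were picked after their values had been seen.

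The makeup of the globin UMIs differed between cells. Beta chains were 70.3% of globin UMIs in cell 4a (95% exact binomial interval 68.5 to 72.2), 65.6% in 5a (64.0 to 67.1) and 42.9% in 5b (38.1 to 47.7). The beta to alpha ratio was thus 2.37, 1.91 and 0.750. The part of reads that match both genes of a pair in these values was not tested. Cell 5b was the only one of the 6 cells with more alpha than beta UMIs, and cells 5a and 5b came from the same library.
Cells 6a and 6b, at P70, had 75.8% (57.7 to 88.9) and 76.5% (50.1 to 93.2) beta UMIs, and cell 4b had 60.0% (26.2 to 87.8) from 10 UMIs. The intervals of these 3 cells were wide and overlapped with that of 4a.
Within the alpha pair, Hba-a1 took a like share in each rich cell, 57.2% in 4a (53.5 to 60.9), 58.8% in 5a (56.1 to 61.5) and 62.3% in 5b (55.9 to 68.4). Within the beta pair, Hbb-bt took 20.4% in 4a (18.5 to 22.4), 6.04% in 5a (5.14 to 7.05) and 2.73% in 5b (0.893 to 6.26), so that the mouse 4 cell stood apart from both mouse 5 cells. Cell 6a, with 32.0% (14.9 to 53.5) of 25 beta UMIs, was also above both. The near-identity of the coding sequences leaves the split uncertain in both pairs. Over the last 100 bases of the transcripts, 84 of 84 aligned bases were the same in the alpha pair and 68 of 97 in the beta pair.

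**Figure D5:**
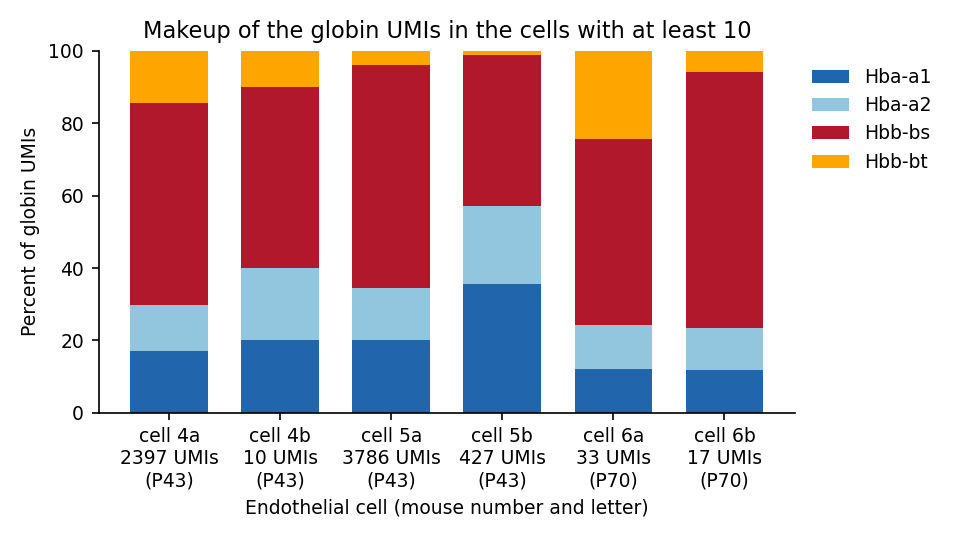
Percent of globin UMIs (vertical axis) from Hba-a1, Hba-a2, Hbb-bs and Hbb-bt in the 6 EC with at least 10 globin UMIs, with the number of UMIs and the age under each bar. Hbb-bs is the largest part in each cell, cell 5b has the lowest beta part (42.9%), and Hbb-bt is 20.4% of the beta UMIs in cell 4a against 6.04% in cell 5a.

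Over all kept cells, the beta to alpha ratio was 2.37 in mouse 4, 1.72 in mouse 5 and 2.92 in mouse 6, and mouse 7 had no globin UMI. The exact two-sided permutation test over these mice, 2 at P43 and 1 at P70, gave p = 0.667, and it cannot go below 0.333. The ratio in EC against other cells was not tested, since other cells held 3, 2 and 1 globin UMIs in mice 4, 5 and 6.

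The difference with age in EC was fitted over all genes with edgeR's quasi-likelihood test on UMIs summed per mouse. It called 823 of 8859 genes (9.29%) at a Benjamini-Hochberg adjusted p under 0.05. Of the 5 members, 4 passed the low-count filter and all 4 were called lower at P70 (3.43% of all genes were), from which nothing is read, since this contrast chose them. Hba-a1 was at 424, 470, 4.97 and 0 CPM in the EC of mice 4, 5, 6 and 7. Hba-a2 was at 318, 322, 4.97 and 0 CPM, Hbb-bs at 1397, 1285, 24.0 and 0 CPM and Hbb-bt at 357, 79.3, 7.45 and 0 CPM.
Without the 3 hemoglobin-rich cells none of the members passed the filter, and the count of called genes was 832. The EC globin level was then 13.5, 0, 41.4 and 0 CPM in mice 4 to 7, so the P43 and P70 libraries overlapped. In mural cells (19.6% of genes called), OL-like cells (0%) and myeloid cells (0.173%), no member passed the filter. For OL-like cells edgeR called 0 genes, with 748 at an unadjusted p under 0.05, and DESeq2 called 99.

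Genes that make, use or clear heme are the setting in which globins act. Of the 8 genes of the common heme synthesis pathway, all 8 were tested in EC, and none passed the test for age. Alas1, the non-erythroid relative of Alas2, was at 422, 405, 307 and 80.2 CPM in the EC of mice 4 to 7, against 3.11, 7.68, 1.66 and 0 CPM of Alas2. Alad was at 66.3, 68.6, 75.3 and 40.1 CPM. The median log2 change of the 8 genes was -0.30, beside -0.04 over all genes tested.

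Of 18 genes of heme and iron handling, 13 were tested in EC, 2 rose at P70 and none fell, where 5.86% of all genes rose and 3.43% fell. Their median log2 change was 0.17, beside -0.04 over all genes tested. Fth1, the ferritin heavy chain that stores iron, rose from 2071 and 1563 CPM in mice 4 and 5 to 14410 and 3891 CPM in mice 6 and 7 (log2 change 2.45 ± 0.50 SE, edgeR adjusted p 0.00855). The mice did not overlap, and mouse 6 was the highest. In those EC, the 12 myeloid markers summed to 15.5, 3.07, 406 and 0 CPM in mice 4 to 7, with 5, 3, 12 and 0 of 12 detected, and their part in the Fth1 value was not tested.
Bach1, the heme-sensing repressor, rose from 58.0 and 54.8 CPM to 113 and 107 CPM (log2 change 1.09 ± 0.24 SE, edgeR adjusted p 0.0125). Ftl1, the ferritin light chain, was at 922, 1014, 1115 and 936 CPM in mice 4 to 7, and Abcg2, an exporter that also carries porphyrins, at 982, 862, 610 and 722 CPM. Neither passed the test. In EC, the log2 change of Fth1 was 1.04 without mouse 6 and 3.12 without mouse 7. Its call was lost with DESeq2 (adjusted p 0.178) and without mouse 5 (edgeR adjusted p 0.186). The Bach1 call in EC was lost with DESeq2 (adjusted p 0.528) and without mouse 4 (edgeR adjusted p 0.179), mouse 5 (0.364) or mouse 6.
In mural cells, 11 of the 18 genes were tested, 3 rose and 3 fell, where 10.7% of all genes rose and 8.93% fell. Those that rose were Fth1 (log2 change 0.61 ± 0.16 SE, edgeR adjusted p 0.022), Bach1 (0.71 ± 0.21 SE, edgeR adjusted p 0.0318) and Abcg2 (1.31 ± 0.33 SE, edgeR adjusted p 0.0148). Those that fell were Flvcr2, a choline and putative heme transporter (log2 change -2.60 ± 0.59 SE, edgeR adjusted p 0.00885), Slc48a1, a heme transporter of endosomes and lysosomes (-1.03 ± 0.28 SE, edgeR adjusted p 0.0247), and Lrp1, the receptor for the heme carrier hemopexin (-0.78 ± 0.21 SE, edgeR adjusted p 0.0251). Abcg2, Flvcr2, Slc48a1 and Lrp1 in mural cells were named after their values had been seen.
All 6 calls in mural cells were lost with DESeq2 (adjusted p 0.103 to 0.618), without mouse 4 (edgeR adjusted p 0.0756 to 0.304) and without mouse 5 (edgeR adjusted p 0.0999 to 0.284), and all but that of Lrp1 without mouse 6 (edgeR adjusted p 0.164 to 0.567). Without mouse 6, the log2 change in mural cells was 0.38 for Fth1, -1.33 for Lrp1 and -6.94 for Flvcr2. In myeloid cells, Fth1 rose (log2 change 1.42 ± 0.19 SE, edgeR adjusted p 0.048), and that call was lost without mouse 4 (edgeR adjusted p 0.171) or mouse 5 (0.341) and at resolution 1.0 of the clustering (0.0548).

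Of 34 erythroid genes, 11 were tested in EC, 1 rose and 1 fell (9.29% of all genes were called), with a median log2 change of 0.19 beside -0.04 over all genes tested. Tfrc fell from 1170 and 1150 CPM in mice 4 and 5 to 139 and 160 CPM in mice 6 and 7 (log2 change -2.92 ± 0.23 SE, edgeR adjusted p 2.62e-05). This receptor is a capillary marker of brain EC as well as an erythroid gene, and 12 UMIs lay behind the value of mouse 7. Isg20 rose from 9.32 and 20.5 CPM to 48.0 and 26.7 CPM (log2 change 1.60 ± 0.40 SE, edgeR adjusted p 0.0249), with 2 UMIs in mouse 7. The Isg20 call was lost with DESeq2 (adjusted p 0.798) and without mouse 4 (edgeR adjusted p 0.511), mouse 5 (0.0914) or mouse 6 (0.851, log2 change 0.66), while the Tfrc call was lost under none of the 10 alternatives run. Bnip3l and Car2, with 1596 and 1007 UMIs the next in EC after Tfrc, did not pass the test.
Of 9 other globin genes in the features, none was tested in EC. Cygb, the gene of cytoglobin, an oxygen-binding protein of pericytes and fibroblasts, had 4 UMIs in EC, Hbb-y 2 and Ngb 1. In mural cells Cygb rose with age, from 131 and 116 CPM to 410 and 562 CPM (log2 change 2.06 ± 0.21 SE, edgeR adjusted p 4.41e-05). The mural class joined a cluster led by Rgs5 and Vtn, with 269, 257, 212 and 35 cells in mice 4 to 7, and another led by Dcn, Col1a1 and Col3a1. The latter had 19, 3, 32 and 3 cells. The part of this makeup in the changes of Cygb and other genes in mural cells was not tested.

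The genes most like the summed globins across 36 combinations of mouse and cell class, of 9982 genes ranked by Pearson's r of log2(CPM + 1), were Cyyr1 (0.835), Bsg (0.812), Slc16a4 (0.805), Tek (0.804) and Gata2 (0.796). With each mouse's mean subtracted they were Cyyr1 (0.838), Gata2 (0.827), Bsg (0.817), Mecom (0.807) and Slc16a4 (0.798). Tek is the angiopoietin receptor of endothelium, and Gata2 and Mecom are transcription factors. The points share libraries and depth, and globins are above 100 CPM in 2 of them. They also hold the EC and age contrasts that chose the members, so a list led by EC genes follows from that choice. The values are a description and are given without a p.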

How the data were processed

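The authors aligned the reads of 4 tumor libraries (Chromium Single Cell 3′ v3.1) with Cell Ranger 6.0.2 to mm10 with the human MYCN and luciferase sequences added. The deposited matrices hold raw UMI counts of each gene in each barcode. These counts are not normalized. The labels name dual-index libraries, whereas the methods of the study name single-index ones. Members and gene lists were chosen with earlier results of these data known, and the lists name genes that pass the age test in EC, at most 10 a list, and the 3 with most UMIs in EC, a few of which are not reported here.

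Kept were barcodes with at least 200 genes, under 25% mitochondrial UMIs and at most 40000 UMIs, counted over genes with a UMI in 3 or more barcodes of that library. No doublet caller was run. Cells were clustered with Seurat 5.3.0 (2000 variable genes, anchor integration, 30 components, resolution 0.5, seed 1) without hemoglobin and erythroid genes, which gave 20 clusters. A cluster was named by at least 3 markers raised 2-fold. Clusters with at least 500 CPM of the reporter were called tumor cells. Levels are CPM of all UMIs of a class. Intervals are exact Poisson or Clopper-Pearson, at 95%, and a count of 0 allows 3 counts.

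Ages were compared over UMIs summed per mouse with edgeR 4.0.16 (TMM, filterByExpr, quasi-likelihood test, adjusted p limit 0.05), with DESeq2 1.42.0 as an alternative. The test was checked on simulated data. Each mouse is a separate animal, with 2 mice per age. Gene models came from GENCODE vM21 and promoters from RefSeq. The missing features Ahsp and Hbb-bh0 were not used here. P77 and P92 tumors were not analysed here.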

Additional observations from a re-analysis of the deposited data

How the results depend on the processing

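The share of globin UMIs in EC (99.9%) and the log2 ratio of EC over other cells (14.27) moved by less than the spread between mice under a limit of 60000 UMIs, a mitochondrial limit of 10%, resolution 1.0, no integration, erythroid genes kept for clustering and EC called cell by cell, as did the ratio on UMIs per cell. Without the 3 hemoglobin-rich barcodes they were 91.3% and 7.55. Leaving out each mouse gave 99.8% to 99.9% and 13.22 to 14.75. The share of EC with globin (1.06% at 2000 UMIs) was 0.622% at 1000 UMIs, 0.719% without thinning and 0.719% to 1.67% without each mouse. The 15 cells with globin were 7 to 15 without each mouse, 7 without mouse 4. The beta to alpha difference of P70 over P43 (0.88) was 0.56 to 1.20 without mouse 4, 5 or 7, and gave no value without mouse 6.

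The genes called with age in EC (823) were 230 with DESeq2, 1245 without a filter, and 206 to 1623 without each mouse (465 without mouse 4, 206 without 5, 395 without 6 and 1623 without 7). In mural cells (1694) they were 610 with DESeq2 and 492 to 2141 without each mouse (579 without mouse 4, 794 without 5 and 492 without 6). In OL-like cells (0) they were 99 with DESeq2, 10 without a filter and 0 to 0 without each mouse. In myeloid cells (9) they were 71 with DESeq2, 252 without a filter, 18 with erythroid genes kept for clustering and 0 to 386 without each mouse (0 without mouse 5, 261 without 6 and 386 without 7). The cause of these moves was not tested. Leaving the 3 barcodes out was chosen after seeing the data for the age test, as was the count over all deposited barcodes (15 cells).

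No paired analysis was possible because the replicate numbers only name the mice of each age. The planned tests of globin ratios in EC against other cells were not run, since other cells held at most 3 globin UMIs per mouse, and their alternatives gave no value. The 36 EC of mouse 7 limit every P70 value in EC.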
